A study of Mus musculus with 12 samples.

Results

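The white fat pad beside the epididymis (eWAT, a visceral depot of the mouse) was compared between mice on a high-fat diet (HFD) and mice on a normal diet (ND), all with the genotype labelled TET KO (TKO). The comparison took 6 of the 12 RNA-seq libraries of the series, 3 HFD_TKO and 3 ND_TKO. It covered the 15597 of 25232 listed genes that reached 0.5 CPM (a gene's share of its library's reads, in the deposited unit) in at least 3 of the 12 libraries. The other 6 libraries, 3 HFD_WT and 3 ND_WT, came from wild-type (WT) mice on the same diets and are set beside the TKO values. All mice were of strain C57BL/6, and the series title places the loss of TET proteins in adipocytes. The deleted exons, the driver of the deletion, sex, age, time on each diet and any pooling of animals are not given in the sources used here. The labels' protocols call the 3 libraries of a group biological replicates. In the main fit, p-values and standard errors (SE) rest on the spread between replicates pooled over all 4 groups, WT included. The design text gives the purpose as a comparison of transcription in adipocytes of both genotypes.

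TET enzymes oxidise 5-methylcytosine in DNA, the first step of its active removal, and so act on gene regulation in many tissues. When a mouse eats a fatty diet, the adipocytes of visceral fat take up lipid and enlarge, leptin rises, and macrophages, matrix and dividing cells accumulate. Sterol, fatty acid and triglyceride synthesis in adipocytes answer to insulin and to the sterol-regulated factors of the SREBP family.

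The targeted genes were examined first. Tet1 stood at 2.77, 2.22 and 2.98 CPM in ND_TKO and at 3.07, 2.07 and 1.65 CPM in HFD_TKO. Tet2 stood at 15.1, 23.5 and 15.7 CPM in ND_TKO and at 9.54, 13.4 and 10.7 CPM in HFD_TKO, and Tet3 at 48.5, 49.1 and 40.0 CPM and at 61.0, 62.4 and 58.9 CPM. Since reads over a whole gene include undeleted exons and cells other than adipocytes, these values do not check the labels. Tet3 rose on HFD in TKO (log2 change 0.40, SE 0.09, adjusted p = 0.0098) and in WT (0.80, adjusted p = 1.3e-05). The call of Tet2 (-0.63, SE 0.20, adjusted p = 0.038) ended in 6 of 17 alternatives, among them the fits without ND_TKO replicate 2 (0.13), ND_TKO replicate 3 (0.065), HFD_TKO replicate 1 (0.12) or HFD_TKO replicate 3 (0.10), over a range of 0.0023 to 0.13.

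Library totals recovered from the deposited values ran from 20973140 to 25606629 reads. The 15 epididymis genes summed to at most 4.50 CPM in any TKO library, 7 of them having no read in all 6, while 25 adipocyte genes summed to between 66726 and 89036 CPM. HFD_TKO replicate 1 stood apart from replicates 2 and 3 on the second principal component (44.2 against 18.5 and 26.2), a component with 15.8% of the variance. On the same component ND_WT replicate 3 (-6.21) stood apart from ND_WT replicates 1 and 2 (-32.0 and -32.6). As whole tissue was sequenced, fewer cells of a type and less RNA per cell cannot be told apart in any value below.

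A gene was called when its adjusted p was below 0.05 in limma on log2(CPM + 1). In TKO 2525 genes (16.2% of those tested) were higher on HFD and 921 (5.9%) were lower, or 22.1% together. Counts of the gene lists below are to be read against these shares. With TMM scaling, which compares libraries over genes of middling change, 1520 (9.75%) were higher and 1394 (8.94%) lower, or 18.7% together, so the higher share of calls was 73.3% with CPM and 52.2% with TMM. Changes of at least 2-fold were called higher in 214 genes (1.37%) and lower in 130 (0.833%). Without regard to any test, all 3 HFD_TKO libraries lay above all 3 ND_TKO libraries in 4322 genes (27.7%) and below them in 1830 (11.7%). The calls leaned on single libraries: without ND_TKO replicate 3, 1256 genes were higher and 460 lower, without HFD_TKO replicate 3 1600 were higher, and without HFD_TKO replicate 1 or ND_TKO replicate 2 562 or 536 were lower.

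The same diet contrast in WT, which shares no library with the TKO contrast, called 5892 genes higher (37.8%) and 3173 lower (20.3%). A gene's diet change in TKO minus that in WT (the interaction) was called positive in 1550 genes (9.94%) and negative in 2926 (18.8%). Most genes called in TKO were called in the same direction in WT. Of the 2525 TKO-higher genes 2003 were WT-higher too (79.3% of the TKO list, 34.0% of the WT list), and of the 921 TKO-lower genes 726 were WT-lower (78.8% and 22.9%). Among these 2729 genes the change was smaller in TKO in 2247 (82.3%). Opposite calls were made for 68 genes higher in TKO and lower in WT and for 48 lower in TKO and higher in WT. Across the 15597 genes the diet changes of both genotypes had a Pearson correlation of 0.645, a description over genes, which are not independent.

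**Figure D1:**
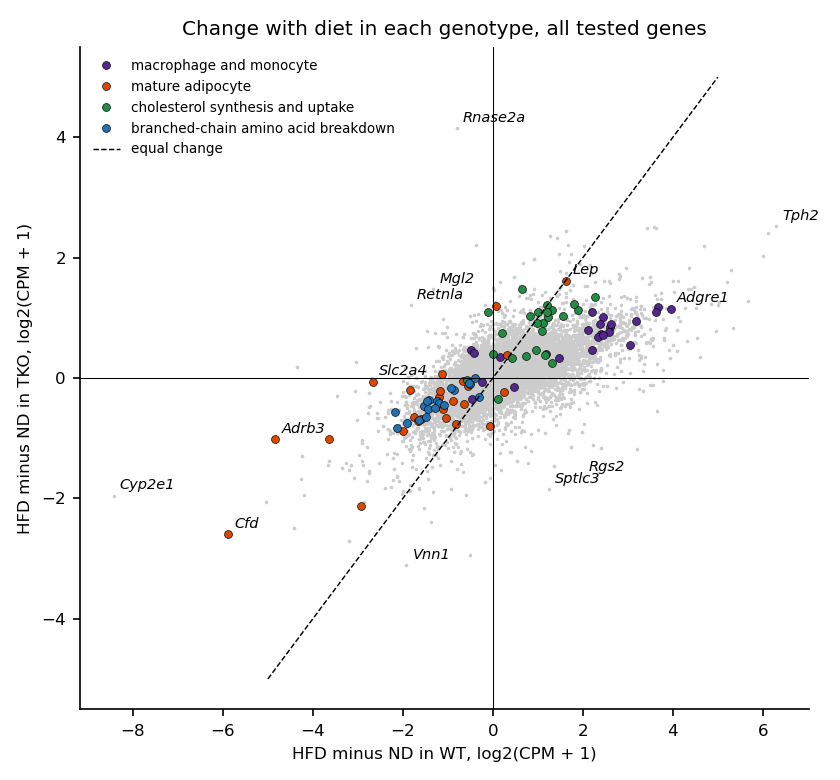
Diet change of each tested gene (points) in WT (horizontal) and TKO (vertical), as HFD minus ND on the log2(CPM + 1) scale, with 4 gene lists coloured and the dashed line marking equal change. Most macrophage genes lie to the right below the line, most adipocyte and amino acid genes to the left above it, and most cholesterol genes right of 0 and above 0, while Rnase2a, Retnla and Mgl2 lie above 0 in TKO and below 0 in WT.

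Among the largest rises were genes of receptors, lipid enzymes and a channel. Oxtr, the oxytocin receptor gene (chromosome 6, 112473683 to 112491035 of mm10), stood at 43.9, 18.4 and 19.3 CPM in ND_TKO and, on HFD, at 204, 121 and 123 CPM (log2 change 2.49, SE 0.55, adjusted p = 0.0089). Paqr9, a progestin and adiponectin receptor family gene (chromosome 9, 95559634 to 95568022), went from 15.2, 7.74 and 10.8 to 102, 45.2 and 55.6 CPM (2.44, SE 0.31, adjusted p = 0.0012). In both genes HFD_TKO replicate 1 was the highest of the 6 TKO libraries. That the groups did not overlap was required by the naming rule for the largest changes. Mogat2, an acyltransferase of triglyceride synthesis, rose from 4.06, 1.85 and 1.91 to 22.9, 14.2 and 15 CPM (2.37, adjusted p = 0.0050). Otop1, a proton channel gene, rose from 1.38, 0.325 and 0.534 to 18.1, 6.11 and 5.35 CPM (2.49, adjusted p = 0.0018). Dio2, which activates thyroid hormone, and Hephl1, a copper-dependent ferroxidase gene, rose by 2.21 and 2.20 (adjusted p = 0.0036 and 0.0054), with HFD_TKO replicate 1 again highest. These 6 genes were called higher in WT as well (changes of 1.27 to 3.62).

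**Figure D2:**
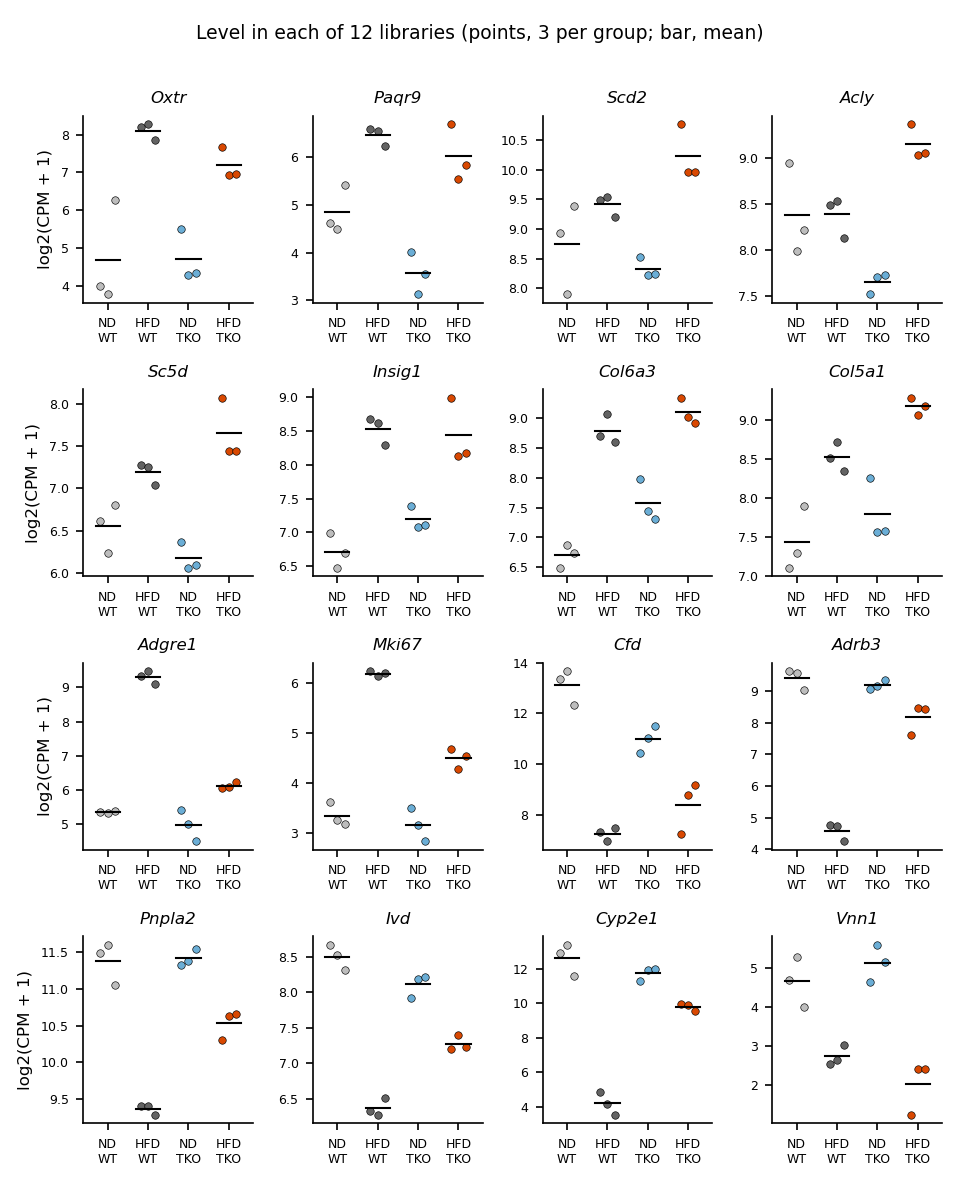
Level of 16 genes in each of the 12 libraries on the log2(CPM + 1) scale, with 3 points per group and a bar at the mean. In the lower rows Cfd, Adrb3, Pnpla2, Ivd and Cyp2e1 fall on HFD in both genotypes and less far in TKO, while Vnn1 ends lower in HFD_TKO than in HFD_WT.

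Other large rises were of immune or sensory genes or of genes read with another. Rgs1, a G-protein regulator of leukocytes, went from 4.52, 3.20 and 0.801 to 13.5, 16.6 and 23.7 CPM (2.41, adjusted p = 0.0015), against a WT change of 6.11. Mrgprg, an orphan receptor gene, went from 1.25, 0.742 and 0.578 to 10.8, 3.68 and 10.3 CPM (2.22, adjusted p = 0.0016). Mir5114 lies at 44303171 to 44303231 of chromosome 19 inside Scd2 (44293676 to 44306864), so its rise (2.33, adjusted p = 0.0049) cannot be told apart from reads of that gene. Tph2 and Fosb also met the naming rule. For Tph2 (2.52, adjusted p = 0.016) the call ended without ND_TKO replicate 3 (0.061) and with limma-voom (0.095), and its change was 1.65 without HFD_TKO replicate 1, with p between 0.0053 and 0.095 over the alternatives. The call of Fosb (2.51, adjusted p = 0.033) ended in 9 of 17 alternatives, without any TKO library other than ND_TKO replicate 2 (0.058 to 0.11) among them, over a range of 0.012 to 0.11.

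The largest falls were of enzymes and adipocyte genes. Vnn1, pantetheinase (chromosome 10, 23894688 to 23905344), fell from 23.9, 47.5 and 34.7 CPM to 1.35, 4.32 and 4.34 CPM (-3.11, SE 0.37, adjusted p = 0.0010). Inmt, an indole N-methyltransferase, fell from 115, 149 and 149 to 7.49, 29.7 and 21.3 CPM (-2.94, SE 0.37, adjusted p = 0.0010), while its WT change was -0.51 (adjusted p = 0.25; interaction -2.43, adjusted p = 0.0044). Mycl, a MYC family gene, fell from 28.3, 59.8 and 56.7 to 3.26, 9.14 and 7.45 CPM (-2.71, adjusted p = 0.0015). In these 3 genes HFD_TKO replicate 1 was the lowest library, and non-overlap of the groups was again required by the naming rule. Fam13a, a gene tied to fat distribution in human genetics, fell by 2.49 (adjusted p = 0.0041), Lrmda, a melanosome gene, by 2.16 (0.0060) and Chdh, choline dehydrogenase, by 1.92 (0.0059). Serpina3j and Xlr3b fell by 2.40 and 1.94 (adjusted p = 0.0013 and 0.00042), but both belong to families of near-identical copies, among which the counting could split reads.

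Of 25 genes of the mature adipocyte 14 were lower and 2 higher (median log2 change -0.44, against 0.07 over all tested genes), and without ND_TKO replicate 3 the lower ones numbered 8. The higher count was 1 without any HFD_TKO library or ND_TKO replicates 2 or 3. Cfd, adipsin (chromosome 10, 79890853 to 79892655), stood at 1380, 2083 and 2889 CPM in ND_TKO and at 150, 440 and 573 CPM in HFD_TKO (-2.59 with SE 0.47, adjusted p = 0.0037). The hormone gene Retn, resistin, fell from 618, 648 and 830 to 285, 377 and 372 CPM (-1.02, SE 0.15, adjusted p = 0.0016). Both falls were smaller than in WT, where Cfd changed by -5.89 (interaction 3.30, adjusted p = 0.0030) and Retn by -3.63 (interaction 2.61, adjusted p = 1.3e-05). Cfd started higher in WT, at 10483, 13059 and 5225 CPM on ND, and stood at 157, 123 and 176 CPM on HFD. The difference in change therefore includes a difference between the genotypes on ND. Adipoq, adiponectin, fell from 6242, 5663 and 6448 to 3004, 4293 and 4548 CPM (-0.65, adjusted p = 0.014); the call ended without ND_TKO replicate 3 (0.059) and with no filter on low values (0.062), in a range from 1.6e-06 to 0.062. Nnat, neuronatin, fell from 949, 952 and 1227 to 70.3, 418 and 440 CPM (-2.13, adjusted p = 0.015), a change of -1.27 without HFD_TKO replicate 1 and with a lost call without ND_TKO replicate 3 (0.06; range 0.0033 to 0.06).

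Leptin went the other way. Lep (chromosome 6, 29060221 to 29073876), a hormone that rises with adipocyte size, stood at 984, 611 and 629 CPM in ND_TKO and at 3001, 1927 and 1891 CPM in HFD_TKO (1.62 with SE 0.47, adjusted p = 0.030). In WT it went from 689, 495 and 2588 to 3095, 3098 and 2710 CPM, a change that was also 1.62. ND_WT replicate 3 lay far above the other ND_WT libraries, so equal changes in the genotypes are not shown. The TKO groups of Lep did not overlap. Its call ended in 7 of 17 alternatives: without HFD_TKO replicate 1, 2 or 3 (0.096, 0.050 and 0.057), without ND_TKO replicate 2 or 3 (0.085 and 0.10), with edgeR (0.053) and with no filter (0.053), with p from 0.0075 to 0.10 in all. Slc2a4, the insulin-responsive glucose transporter GLUT4, stood at 155, 146 and 166 CPM in ND_TKO and at 119, 172 and 162 CPM in HFD_TKO (-0.06 with SE 0.14, adjusted p = 0.79). In WT it fell from 280, 220 and 215 to 35.7, 34.3 and 39.8 CPM (-2.66), and the interaction was 2.60 (adjusted p = 7.8e-06). For Cebpa, a master factor of adipocyte identity, the TKO change was -0.21 (adjusted p = 0.20, called only without ND_TKO replicate 2 with 0.032; range 0.032 to 0.49) and the WT change -1.17 (interaction 0.96, adjusted p = 0.00088).

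Of 24 β-adrenergic and lipolytic genes 10 were lower and none higher (median -0.38), and 5 were lower without ND_TKO replicate 3 or without HFD_TKO replicate 3. Adrb3, the β3-adrenergic receptor gene through which catecholamines drive lipolysis (chromosome 8, 27225776 to 27230845), stood at 529, 576 and 644 CPM in ND_TKO and at 194, 350 and 346 CPM in HFD_TKO (-1.02 with SE 0.23, adjusted p = 0.010). In WT it fell from 791, 766 and 525 to 26.2, 25.6 and 18.1 CPM (-4.83; interaction 3.81, adjusted p = 1.6e-05). Both lipase genes were lower: Pnpla2 (ATGL) went from 2564, 2666 and 2960 to 1270, 1578 and 1617 CPM (-0.88, adjusted p = 0.0028), and Lipe (hormone-sensitive lipase) changed by -0.72 (adjusted p = 0.0078). Pde3b, the phosphodiesterase by which insulin restrains lipolysis, changed by -0.98 (adjusted p = 0.0017).

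Lipid synthesis genes went both ways. Of 27 genes that build fatty acids or triglycerides 9 were higher and 7 lower (median 0.24), with 5 higher without ND_TKO replicate 1 and 4 without ND_TKO replicate 3; 6 were higher with TMM scaling. In WT 2 were higher and 14 lower, and the interaction was positive in 14 and negative in 2. Scd2, a stearoyl-CoA desaturase (chromosome 19, 44293676 to 44306864), went from 369, 298 and 299 CPM in ND_TKO to 1745, 995 and 1001 CPM in HFD_TKO (1.90 with SE 0.32, adjusted p = 0.0028). Acly, which makes cytosolic acetyl-CoA (chromosome 11, 100476352 to 100528000), went from 183, 208 and 212 to 661, 525 and 530 CPM (1.50, SE 0.20, adjusted p = 0.0013), while its WT change was 0.00 (interaction 1.50, adjusted p = 0.0025). The triglyceride synthase gene Dgat2 went from 1186, 972 and 1141 to 3417, 2179 and 2108 CPM (1.19, SE 0.26, adjusted p = 0.0078). In Scd2, Acly and Dgat2 every HFD_TKO library lay above every ND_TKO library.

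Other genes of the list were lower. Acacb, the mitochondrial-face acetyl-CoA carboxylase, went from 71.4, 115 and 104 to 38.4, 35.3 and 29.6 CPM (-1.44, SE 0.29, adjusted p = 0.0061). Pck1, the enzyme of glyceroneogenesis (chromosome 2, 173153073 to 173159274), went from 1778, 1833 and 2095 to 586, 774 and 747 CPM (-1.44, SE 0.17, adjusted p = 0.00098). In WT it started higher and went from 4426, 4912 and 3034 to 304, 314 and 340 CPM (-3.66, interaction 2.22, adjusted p = 5.3e-05). Gpam, Lpin1 and Acsl1, which activate fatty acids or carry them into glycerolipids, changed by -0.87, -0.71 and -0.79 (adjusted p = 0.0088, 0.0010 and 0.0060). Scd1, the most abundant of these genes, stood at 51167, 42842 and 43549 CPM in ND_TKO and at 33247, 33099 and 29025 CPM in HFD_TKO. Its groups did not overlap, yet limma did not call it (-0.53, adjusted p = 0.17), whereas edgeR on recovered reads did (-0.61, adjusted p = 0.0066), with p between 1e-06 and 0.80 over all alternatives.

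Some lipogenic genes moved in opposite directions in the genotypes. Fasn, the fatty acid synthase gene (chromosome 11, 120805958 to 120825166), stood at 1138, 1280 and 1367 CPM in ND_TKO and at 2950, 2127 and 1857 CPM in HFD_TKO (0.85 with SE 0.26, adjusted p = 0.036). In WT it went from 3260, 2081 and 1972 to 1266, 1586 and 808 CPM (-1.01), and the interaction was 1.86 (adjusted p = 0.0028). The TKO call of Fasn ended in 10 of 17 alternatives (p from 0.014 to 0.12), which included TMM scaling (0.072), the replicate block within TKO (0.052) and the fits without HFD_TKO replicate 1 (0.12) or 2 (0.062) or ND_TKO replicate 1 (0.094), 2 (0.077) or 3 (0.079). Pnpla3, a lipid droplet acyl hydrolase gene, rose in TKO from 281, 187 and 183 to 514, 402 and 357 CPM (0.98, SE 0.18, adjusted p = 0.0038) and fell in WT (-1.11; interaction 2.09, adjusted p = 0.00011). Mlxipl, which encodes the carbohydrate-responsive factor ChREBP, changed by 0.49 in TKO (adjusted p = 0.020) and by -1.71 in WT (interaction 2.21, adjusted p = 1.5e-05); the TKO call ended without HFD_TKO replicate 2 (0.067) or 3 (0.063) or ND_TKO replicate 3 (0.081; range 0.012 to 0.081). For Thrsp, a lipogenic regulator, the TKO change was 0.26 (adjusted p = 0.22) and the WT change -3.05 (interaction 3.31, adjusted p = 2.9e-06).

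**Figure D3:**
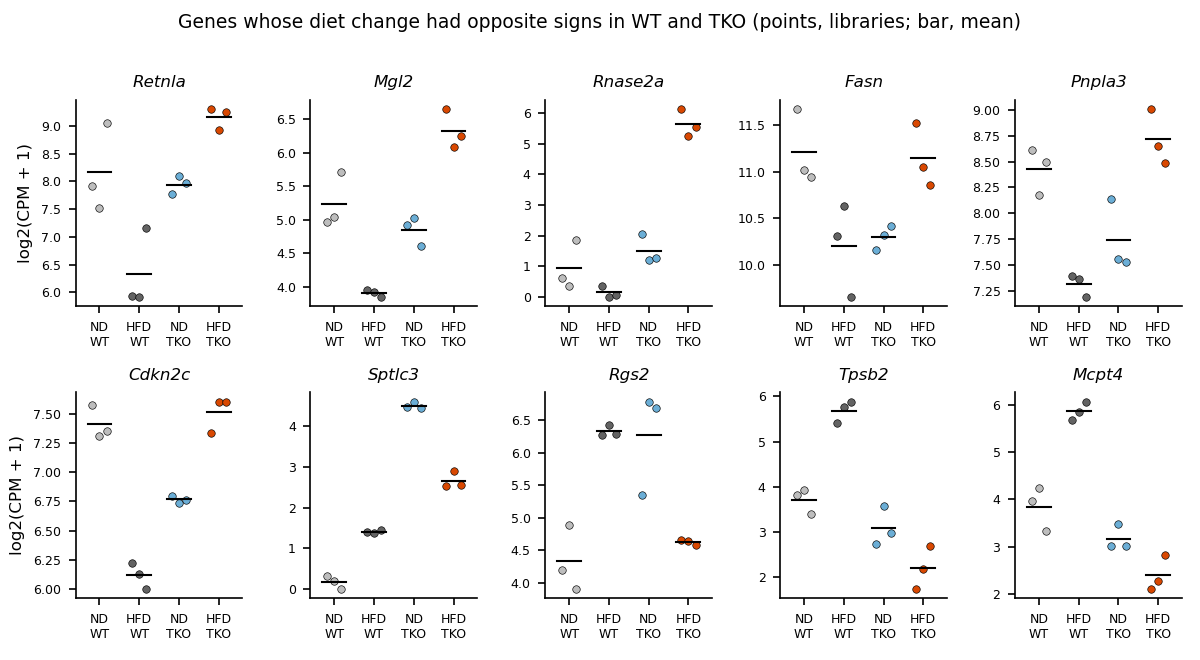
Level of 10 genes in each of the 12 libraries on the log2(CPM + 1) scale, with 3 points per group and a bar at the mean. From ND to HFD Retnla, Mgl2, Fasn, Pnpla3 and Cdkn2c rise in TKO and fall in WT, Rnase2a rises in TKO from a low level, and Sptlc3, Rgs2, Tpsb2 and Mcpt4 fall in TKO and rise in WT.

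Among lists of at least 10 tested genes the cholesterol pathway held the largest share of higher genes. Of 24 genes of cholesterol synthesis and uptake 20 were higher and none lower (median 0.97), against 17 higher and 1 lower with TMM scaling, 13 higher without ND_TKO replicate 3 and 15 higher without HFD_TKO replicate 1 (median 0.74). HFD_TKO replicate 1 was the highest HFD_TKO library in 19 of the 20. It was likewise the most extreme in 11 of the 14 lower adipocyte genes and 8 of the 9 higher fatty acid and triglyceride genes. In other lists it was not, with 3 of the 14 higher macrophage and monocyte genes and 0 of the 6 lower oxidative phosphorylation genes. In WT 19 of the cholesterol genes were higher and 1 lower (median 1.05), with a positive interaction in 2 genes and a negative one in 2.

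Promoter sequences of 3 of these genes and of the cell cycle gene Top2a are shown because members of both lists moved together; each spans 250 bases before to 50 after the start in RefSeq on GRCm38.p6, the mm10 assembly. Capitals mark CCAAT (the box bound by NF-Y) on either strand and, in Hmgcs1, a sterol regulatory element of the form TCACNCCAC, in Sc5d and Insig1 the E-box CACGTG, and in Top2a TTTGAA, the core of the cell cycle homology region. Hmgcs1 makes HMG-CoA (chr13:119690101-119690400, plus strand), Sc5d a late sterol intermediate (chr9:42264251-42264550, minus strand) and Insig1 a sterol-sensing retention protein (chr5:28071162-28071461, plus strand). Top2a, topoisomerase II, lies at chr11:99024140-99024439 on the minus strand.
Hmgcs1: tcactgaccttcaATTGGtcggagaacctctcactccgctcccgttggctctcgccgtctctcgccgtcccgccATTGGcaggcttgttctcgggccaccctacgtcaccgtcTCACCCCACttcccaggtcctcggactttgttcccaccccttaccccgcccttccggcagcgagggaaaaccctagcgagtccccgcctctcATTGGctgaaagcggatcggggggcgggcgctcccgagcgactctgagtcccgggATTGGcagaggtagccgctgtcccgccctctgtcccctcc
Sc5d: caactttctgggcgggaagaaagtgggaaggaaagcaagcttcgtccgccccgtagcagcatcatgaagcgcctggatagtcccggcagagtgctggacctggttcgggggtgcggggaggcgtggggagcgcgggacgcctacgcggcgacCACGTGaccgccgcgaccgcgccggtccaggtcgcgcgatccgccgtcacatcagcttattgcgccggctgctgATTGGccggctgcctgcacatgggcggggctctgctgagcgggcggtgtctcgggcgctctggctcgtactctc
Insig1: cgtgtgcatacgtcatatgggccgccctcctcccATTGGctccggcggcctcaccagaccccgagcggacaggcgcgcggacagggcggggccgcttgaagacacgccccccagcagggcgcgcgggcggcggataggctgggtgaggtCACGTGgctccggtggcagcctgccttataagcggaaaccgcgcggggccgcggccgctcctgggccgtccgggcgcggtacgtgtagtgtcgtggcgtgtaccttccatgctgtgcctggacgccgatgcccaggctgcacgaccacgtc
Top2a: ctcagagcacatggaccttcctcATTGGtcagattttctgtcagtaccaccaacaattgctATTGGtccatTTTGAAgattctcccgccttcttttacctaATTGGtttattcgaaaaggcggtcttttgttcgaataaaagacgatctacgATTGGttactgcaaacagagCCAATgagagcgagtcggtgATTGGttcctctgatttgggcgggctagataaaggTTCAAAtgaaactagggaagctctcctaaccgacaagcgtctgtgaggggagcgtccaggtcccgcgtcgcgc

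Over 15361 promoters of 12153 tested genes, CCAAT was found on either strand in 37.4%. It was found in 16 of 20 promoters of the cholesterol list (80%) and in 15 of the 18 promoters of its members called higher (83.3%). In the cell cycle list it was found in 19 of 23 promoters (82.6%). The 20 promoters came from 17 of the 24 tested cholesterol genes and the 18 from 15 of the 20 called higher. The 23 came from 22 of the 26 tested cell cycle genes. A gene with more than 1 start counts more than once. CACGTG was in 9.49% of all promoters, in 4 of 20 of the cholesterol list and in 1 of 23 of the cell cycle list. TTTGAA was in 12.8% of all, in 1 of 20 and in 8 of 23. Of the sterol element forms searched, TCACNCCAC was in 1.15% of all and in 1 of 20 cholesterol promoters, TCACCCCA in 1.46% and 2, CACCNCAC in 6.67% and 3, and the longer element known as SRE-1 in 0.0586% and 0; these 4 overlap one another in their letters. The E2F forms TTTCCCGC and TTTNGCGC were in 1.84% and 2.23% of all promoters, in none of the cholesterol list and in 3 and 5 of 23 of the cell cycle list. A match in such a window describes the letters and does not show binding.

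Sc5d, the gene of the list with the largest rise, stood at 81.7, 65.7 and 67.4 CPM in ND_TKO and at 269, 173 and 173 CPM in HFD_TKO (1.48 with SE 0.18, adjusted p = 0.0010). Dhcr7, which makes the last step to cholesterol, went from 14.9, 10.9 and 11.3 to 56.4, 22.8 and 27.4 CPM (1.35, SE 0.30, adjusted p = 0.0093). Insig1, which holds SREBP in the endoplasmic reticulum when sterols are plentiful, went from 167, 135 and 137 to 509, 279 and 288 CPM (1.24, SE 0.21, adjusted p = 0.0030). In all 3 genes the groups did not overlap. Fdps, which makes farnesyl pyrophosphate, and Sqle, squalene epoxidase, rose by 1.21 and 0.91 (adjusted p = 0.0081 and 0.0039).

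Hmgcs1, Pmvk and Srebf2 were chosen after their values were seen. Hmgcs1 went from 311, 227 and 233 to 945, 419 and 441 CPM (1.13, adjusted p = 0.017), a change of 0.75 without HFD_TKO replicate 1 and with lost calls without ND_TKO replicates 2 (0.055) or 3 (0.067; range 0.0053 to 0.067). Srebf2, the factor that drives the pathway, rose by 0.46 (adjusted p = 0.0067). Pmvk, phosphomevalonate kinase, went from 47.7, 40.4 and 44.4 to 143, 75.8 and 81.5 CPM (1.10, adjusted p = 0.0028), while it changed by -0.12 in WT (adjusted p = 0.62; interaction 1.22, adjusted p = 0.0046).

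**Figure D4:**
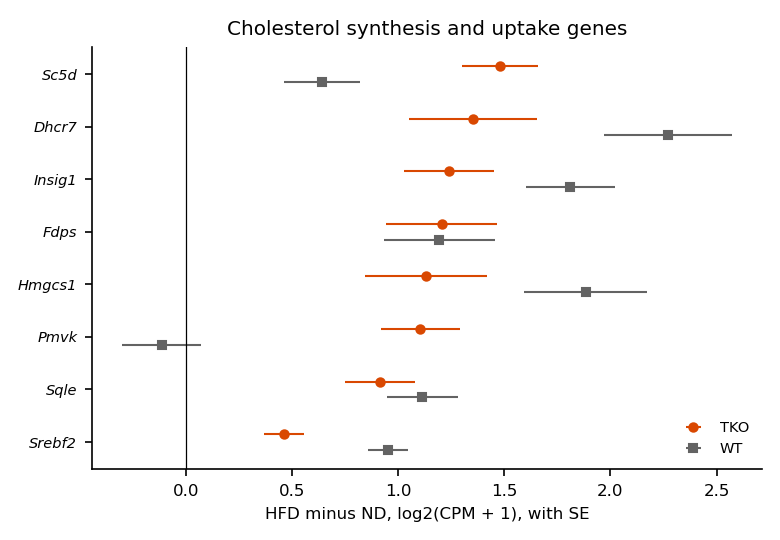
Diet change (HFD minus ND, log2(CPM + 1), with SE) of the 8 cholesterol genes described in the text, in TKO (circles) and WT (squares). All 8 lie right of 0 in TKO; Pmvk lies at 1.10 in TKO and -0.12 in WT.

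Breakdown of branched-chain amino acids, by which adipocytes feed carbon to lipid synthesis, showed the largest share of lower genes among the same lists. Of 19 genes 13 were lower and none higher (median -0.42), whereas in WT all 19 were lower (median -1.29) and the interaction was positive in 18. Ivd, isovaleryl-CoA dehydrogenase (chromosome 2, 118861959 to 118882909), stood at 242, 290 and 297 CPM in ND_TKO and at 146, 168 and 149 CPM in HFD_TKO (-0.83 with SE 0.11, adjusted p = 0.0013). Its WT change was -2.12, from 406, 367 and 315 to 79.8, 76.6 and 90.5 CPM (interaction 1.29, adjusted p = 0.00012). The valine enzymes Aldh6a1 and Hibch and the isoleucine enzyme Acadsb changed by -0.75, -0.70 and -0.65 (adjusted p = 0.0067, 0.0058 and 0.0017).

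Of 31 nuclear genes of oxidative phosphorylation 6 were lower, where 5.9% of all tested genes were, and none higher (median -0.16), but only 1 to 3 were lower when any library other than ND_TKO replicate 1 was left out, and 4 were lower and 1 higher with the replicate block within TKO and 2 and 1 with a block over all libraries. In WT 26 were lower, and the interaction was positive in 19. Ndufv1 of complex I changed by -0.32 (adjusted p = 0.0054). Of 23 genes of the citrate cycle and pyruvate entry 6 were lower (median -0.10), and 3, 2 and 1 were lower without HFD_TKO replicate 3, ND_TKO replicate 2 and ND_TKO replicate 3. Pdk2, a kinase that switches off pyruvate dehydrogenase, went from 133, 157 and 171 to 50.2, 86.0 and 80.5 CPM (-1.11, SE 0.21, adjusted p = 0.0048).

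Fatty acid oxidation genes that were called went both ways, where 16.2% of all tested genes were higher and 5.9% lower. Of 25 genes 3 were higher and 7 lower (median -0.06), with 3 and 2 lower without HFD_TKO replicate 3 and ND_TKO replicate 3. The carnitine transferases Cpt1a and Cpt1b, which admit fatty acids to mitochondria, rose by 0.55 and 0.77 (adjusted p = 0.0089 and 0.0070), as did the thiolase gene Acaa2 (0.43, adjusted p = 0.0046). Echs1, enoyl-CoA hydratase, changed by -0.57 (adjusted p = 0.0050). Among 21 glycolysis genes 7 were higher and 2 lower (median 0.20), the latter 0 without ND_TKO replicate 2 or 3 and 1 without HFD_TKO replicate 1 or 3. Tpi1, Aldoa and the hypoxia factor gene Hif1a rose by 0.83, 0.59 and 0.71 (adjusted p = 0.011, 0.0076 and 0.011), Hif1a by 0.46 without HFD_TKO replicate 1. Hk3, a leukocyte hexokinase, rose from 7.20, 4.26 and 2.80 to 10.9, 10.1 and 13.5 CPM (1.18, adjusted p = 0.0052), less than in WT (3.75; interaction -2.57, adjusted p = 0.00016).

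Of 21 tested genes of a thermogenic list 6 were higher and 1 lower (median 0.41); the lower count was 2 without HFD_TKO replicate 1 or with the block within TKO and 0 without ND_TKO replicate 2 or 3. The median was 0.14 without HFD_TKO replicate 1. The uncoupling protein gene Ucp1, which defines thermogenic fat, did not reach the filter and was at or below 0.233 CPM in every TKO library. The members that rose were not all specific to heat production: Ucp2, an uncoupling protein homologue also found in leukocytes, went from 432, 349 and 331 to 672, 600 and 659 CPM (0.80, SE 0.12, adjusted p = 0.0016), and less than in WT (2.29; interaction -1.49, adjusted p = 6.8e-05). Gatm, the first enzyme of creatine synthesis, rose by 1.23 (adjusted p = 0.0011). In an adipose expansion list of 18 genes 6 were higher and 2 lower (median 0.21), or 3 and 0 without ND_TKO replicate 3; the lower count was 1 without HFD_TKO replicate 2 or 3 or ND_TKO replicate 1. Cavin3, a caveola coat gene, rose from 234, 117 and 167 to 446, 326 and 369 CPM (1.18, adjusted p = 0.013).

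Drug-metabolism genes called in TKO were all lower. Of 22 cytochrome P450 and glutathione transferase genes 11 were lower and none higher (median -0.39), or 7 lower without ND_TKO replicate 3. Cyp2e1, a P450 that oxidises small molecules (chromosome 7, 140763819 to 140774990), stood at 2542, 3923 and 3976 CPM in ND_TKO and at 988, 937 and 736 CPM in HFD_TKO (-1.95 with SE 0.42, adjusted p = 0.0076). In WT it went from 7558, 10777 and 3094 to 28.5, 16.9 and 10.6 CPM (-8.43; interaction 6.47, adjusted p = 2.1e-05). Cyp2f2, another P450 gene, changed by -2.06, and Fmo1 and Gstt3, a flavin monooxygenase and a glutathione transferase, by -0.90 and -0.88 (adjusted p = 0.0089, 0.0079 and 0.0076).

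Of 24 genes of macrophages and monocytes 14 were higher and none lower (median 0.72), and their summed level lay at 1233 to 1667 CPM in ND_TKO and at 2261 to 2595 CPM in HFD_TKO. In WT 19 were higher (median 2.36), the sum reached 9237 to 9990 CPM on HFD, and the interaction was negative in 17 genes and positive in 1. Adgre1, which encodes the macrophage marker F4/80 (chromosome 17, 57358581 to 57483529), stood at 41.5, 30.9 and 21.3 CPM in ND_TKO and at 64.8, 66.4 and 73.7 CPM in HFD_TKO (1.15 with SE 0.18, adjusted p = 0.0020). In WT it went from 39.7, 38.8 and 40.6 to 642, 715 and 549 CPM (3.96; interaction -2.81, adjusted p = 2.1e-05). Cd68, a lysosomal protein of phagocytes, went from 42.3, 32.6 and 25.2 to 66.4, 67.6 and 96.7 CPM (1.19, adjusted p = 0.0017; interaction -2.49, adjusted p = 3.5e-05). Ctss, a lysosomal protease, rose by 1.11 (adjusted p = 0.0031) and Mrc1, the mannose receptor of resident macrophages, by 1.10 (0.016), the latter uncalled without ND_TKO replicate 3 (0.075; range 0.0013 to 0.075).

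Lipid-associated macrophages gather at dying adipocytes. Of 20 of their genes 10 were higher and none lower (median 0.71), 7 of the 20 also belonging to another list. The summed level of the 20 overlapped between the diets, at 32786 to 34311 CPM in ND_TKO and 30572 to 34335 CPM in HFD_TKO. Since Lpl and Cd36, which are also on the adipocyte list, are included, this sum does not measure these macrophages. In WT, where 17 of the 20 were higher and 1 lower (median 2.92), the sum was 24770 to 25607 CPM on ND and 30318 to 34475 CPM on HFD. Itgax, which encodes CD11c, went from 16.7, 7.88 and 7.60 to 23.8, 24.5 and 25.8 CPM (1.22, SE 0.26, adjusted p = 0.0076), while HFD_WT held 299, 365 and 292 CPM (interaction -3.79, adjusted p = 3.0e-05). Trem2, a lipid-sensing receptor gene, went from 11, 4.22 and 3.69 to 15.3, 16.1 and 21.9 CPM (1.48, SE 0.31, adjusted p = 0.0065; interaction -2.91, adjusted p = 0.00046). ND_TKO replicate 1 was the highest ND_TKO library in both genes. Atp6v0d2, a proton pump subunit, Lgals3, galectin-3, and Lipa, lysosomal acid lipase, rose by 1.79, 1.28 and 0.77 (adjusted p = 0.0043, 0.0045 and 0.0029).

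Of 27 cytokine and chemokine genes 11 were higher and none lower (median 0.45), against 6 without HFD_TKO replicate 3, 7 without ND_TKO replicate 2, 5 without ND_TKO replicate 3 and 6 with limma-voom. The monocyte attractants Ccl2 and Ccl7 led: Ccl2 went from 3.23, 3.20 and 2.76 to 11.8, 9.19 and 13.6 CPM (1.61, SE 0.19, adjusted p = 0.00098), and Ccl7 rose by 1.55 (adjusted p = 0.0015). None of 20 T and NK cell genes (median -0.07) and none of 10 B and plasma cell genes (-0.37) passed the test in TKO, while 15 and 7 were higher in WT. At an unadjusted p below 0.05 in limma 1 T and NK cell gene was lower and no B and plasma cell gene differed; edgeR, DESeq2 and limma-voom called 1, 1 and 0 of the former and none of the latter. In the interaction 12 of the 20 T and NK cell genes and 1 of the 10 B and plasma cell genes were called negative. Over all tested genes that share was 18.8%, so a genotype difference is not shown for the B and plasma cell list. The T and NK cell sum was 30.0 to 41.7 CPM in ND_TKO and 34.7 to 44.4 CPM in HFD_TKO. The B and plasma cell sum was 16.5 to 48.3 CPM in ND_TKO and 10.7 to 16.5 CPM in HFD_TKO. In WT the B and plasma cell sum overlapped between diets, at 13.5, 85.0 and 27.1 CPM on ND and 297, 78.4 and 294 CPM on HFD.

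Of the granulocyte and mast cell genes Tpsb2 and Mcpt4 were called lower in TKO and higher in WT. Of 12 tested granulocyte and mast cell genes 2 were higher and 2 lower (median -0.12); the higher count was 1 without HFD_TKO replicate 2 or ND_TKO replicate 3, and the lower count was 1 without ND_TKO replicate 1 or with a replicate block over all libraries and 0 without HFD_TKO replicate 1, HFD_TKO replicate 2, ND_TKO replicate 2 or ND_TKO replicate 3. Tpsb2 and Mcpt4 encode mast cell proteases. Tpsb2 stood at 5.68, 10.8 and 6.89 CPM in ND_TKO and at 2.33, 3.49 and 5.39 CPM in HFD_TKO (-0.90 with SE 0.26, adjusted p = 0.028), and in WT it rose from 13.0, 14.2 and 9.49 to 41.6, 53.0 and 58.1 CPM (interaction -2.88, adjusted p = 0.00015). Mcpt4 changed by -0.77 in TKO (adjusted p = 0.041) and by 2.02 in WT (interaction -2.79, adjusted p = 0.00012). The TKO calls ended in 5 of 17 alternatives for Tpsb2 (p from 0.00092 to 0.099) and in 9 of 17 for Mcpt4 (0.0038 to 0.13, a replicate block over all libraries giving 0.053), in both without HFD_TKO replicates 1 or 2 or ND_TKO replicates 2 or 3, and for Mcpt4 also without ND_TKO replicate 1 (0.056). Csf3r and Kit, receptors of granulocytes and of mast cells and progenitors, changed by 0.69 and 0.71 (adjusted p = 0.0099 and 0.018), Kit losing its call without HFD_TKO replicate 2 (0.061) or ND_TKO replicate 3 (0.081; range 0.0037 to 0.081).

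Rnase2a, Mgl2 and Retnla rose in TKO and were lower or not called in WT. Rnase2a, an eosinophil-associated ribonuclease gene (chromosome 14, 51255261 to 51256112), stood at 3.14, 1.30 and 1.38 CPM in ND_TKO and at 69.5, 37.1 and 46.2 CPM in HFD_TKO (4.15 with SE 0.37, adjusted p = 0.00031), the largest rise by the naming rule. In the WT libraries it was at 0.525, 0.277 and 2.65 CPM on ND and at most 0.274 CPM on HFD (-0.81, adjusted p = 0.080; interaction 4.96, adjusted p = 4.9e-05). Mgl2, the lectin CD301b, went in TKO from 29.3, 31.7 and 23.3 to 99.1, 66.5 and 75.2 CPM (1.47, SE 0.20, adjusted p = 0.0013) and in WT from 30.3, 31.8 and 51.7 to 14.4, 14.2 and 13.5 CPM (-1.33; interaction 2.80, adjusted p = 3.3e-05). Retnla, RELMα, went in TKO from 217, 273 and 249 to 630, 484 and 610 CPM (1.22, SE 0.37, adjusted p = 0.037) and in WT from 241, 183 and 531 to 60.1, 59.6 and 142 CPM (-1.83; interaction 3.04, adjusted p = 0.0013). The groups of TKO did not overlap in any of the 3 genes, which for Rnase2a the naming rule required. The TKO call of Retnla ended in 11 of 17 alternatives, without each of the 6 TKO libraries in turn (0.053 to 0.098) and with the replicate block within TKO (0.056) among them, over a range of 0.0051 to 0.098.

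Of 26 cell cycle genes 19 were higher and none lower (median 0.64), against 25 in WT (median 1.95), with a negative interaction in 22. Top2a, whose promoter is shown above, went from 8.72, 6.12 and 5.33 to 20.9, 14.6 and 20.1 CPM (1.34, SE 0.17, adjusted p = 0.0010), while HFD_WT held 66.2, 62.5 and 58.5 CPM (interaction -1.84, adjusted p = 0.00017). Mki67, the Ki-67 gene, went from 10.3, 7.88 and 6.09 to 24.7, 18.2 and 22.3 CPM (1.34, SE 0.17, adjusted p = 0.0011). Birc5, survivin, and Mcm5 of the replicative helicase rose by 1.12 and 1.05 (adjusted p = 0.0032 and 0.00095). Cdkn2c, an inhibitor of the cyclin D kinases, rose in TKO from 110, 105 and 108 to 161, 194 and 193 CPM (0.75, SE 0.09, adjusted p = 0.0011) and fell in WT from 189, 158 and 162 to 73.7, 68.9 and 63.0 CPM (interaction 2.04, adjusted p = 3.2e-06).

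Most collagen genes tested were higher in TKO on HFD. Of 19 collagen genes 12 were higher and none lower (median 0.69), with 8 under TMM scaling and 7 without ND_TKO replicate 3; in WT 16 were higher, and the interaction was negative in 4 and positive in none. Col6a3, of the collagen VI that surrounds adipocytes (chromosome 1, 90766860 to 90844001), stood at 252, 173 and 157 CPM in ND_TKO and at 651, 520 and 486 CPM in HFD_TKO (1.52 with SE 0.18, adjusted p = 0.0010). Its partner Col6a2 went from 1164, 607 and 651 to 2097, 1788 and 2047 CPM (1.35, adjusted p = 0.0071). Col5a1 and Col1a1, of fibrillar collagens, rose by 1.38 and 1.08 (adjusted p = 0.0018 and 0.0030). ND_TKO replicate 1 was the highest ND_TKO library in each of these genes.

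Matrix genes other than collagens were listed apart. Each list count in this paragraph is to be read against 16.2% higher and 5.9% lower over all tested genes in TKO. Of 30 genes of matrix remodelling and matricellular proteins 8 were higher and none lower (median 0.27); 4 were higher without HFD_TKO replicate 3 and 3 without ND_TKO replicate 3, with TMM scaling 6 were higher and 3 lower, and with either replicate block 2 were lower. Postn, periostin, rose from 195, 170 and 134 to 428, 294 and 364 CPM (1.12, adjusted p = 0.0017). Lum, the collagen-binding proteoglycan lumican, stood at 190, 192 and 162 CPM in ND_TKO and at 223, 214 and 214 CPM in HFD_TKO (0.27, adjusted p = 0.11), and in WT it rose from 67.3, 58.9 and 75.4 to 473, 555 and 427 CPM (interaction -2.57, adjusted p = 2.6e-06). Of 22 progenitor and stromal genes 5 were higher and none lower (median 0.09), or 3 without HFD_TKO replicate 3 and 2 without ND_TKO replicate 3. Sema3c, a secreted semaphorin, rose by 1.09 (adjusted p = 0.0028) and Gdf10, a BMP family ligand, by 0.56 (0.0073). Of 20 vessel genes, endothelial or mural, 2 were higher and 2 lower (median -0.01), the higher count being 1 under TMM scaling and without any HFD_TKO library or ND_TKO replicate 3. Gpihbp1, which holds lipoprotein lipase on capillaries, and Eng, endoglin, changed by -0.55 and -0.53 (adjusted p = 0.0015 and 0.0018), and Cspg4, the pericyte marker NG2, by 0.51 (0.0081).

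Sptlc3 and Rgs2 also fell in TKO and rose in WT. Sptlc3, which encodes part of serine palmitoyltransferase, the entry enzyme to sphingolipids (chromosome 2, 139493913 to 139637061), stood at 21.2, 23.4 and 20.7 CPM in ND_TKO and at 4.79, 6.43 and 4.84 CPM in HFD_TKO (-1.85 with SE 0.13, adjusted p = 0.00012). In WT it was lower throughout, at or below 0.239 CPM on ND and at 1.64, 1.59 and 1.73 CPM on HFD (interaction -3.09, adjusted p = 2.2e-06). Rgs2, a regulator of G-protein signalling, went in TKO from 40.0, 109 and 101 to 24.1, 24.1 and 23.1 CPM (-1.64, SE 0.32, adjusted p = 0.0053) and in WT from 17.4, 28.5 and 14.0 to 75.9, 85.4 and 77.1 CPM (interaction -3.64, adjusted p = 0.00014). Other genes called in these directions were Pex5l, Pramef12, Retreg1 and Dnajc6, with TKO changes of -1.11, -1.15, -1.15 and -1.46 and WT changes of 2.23, 1.73, 1.73 and 1.37. Over 17 alternatives the TKO changes ran from -1.65 to -0.54, -3.10 to -0.37, -1.45 to -0.71 and -1.89 to -0.84. No TKO call of these genes changed, but their sizes are uncertain. Klhl33 had the reverse pattern (0.75 in TKO and -1.12 in WT).

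Markers of other tissues were examined in the same libraries. None of 11 mesothelial genes was called by limma in TKO (median -0.70, and -0.10 without HFD_TKO replicate 1), though 2 were lower at an unadjusted p below 0.05 and 5 were called lower with the replicate block within TKO. Their sum lay between 168 and 308 CPM in ND_TKO and was 52.6 CPM in HFD_TKO replicate 1 against 257 and 222 CPM in replicates 2 and 3. None of the 2 tested epididymis genes, 6 skeletal muscle genes and 7 red blood cell genes passed in limma (medians -0.41, 0.04 and -0.18); at an unadjusted p below 0.05 these were 0, 2 and 0 genes, and edgeR, DESeq2 and limma-voom called none of these nor of the mesothelial genes. Without ND_TKO replicate 1 limma called 1 muscle gene. Their part in the results above was not tested.

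**Figure D5:**
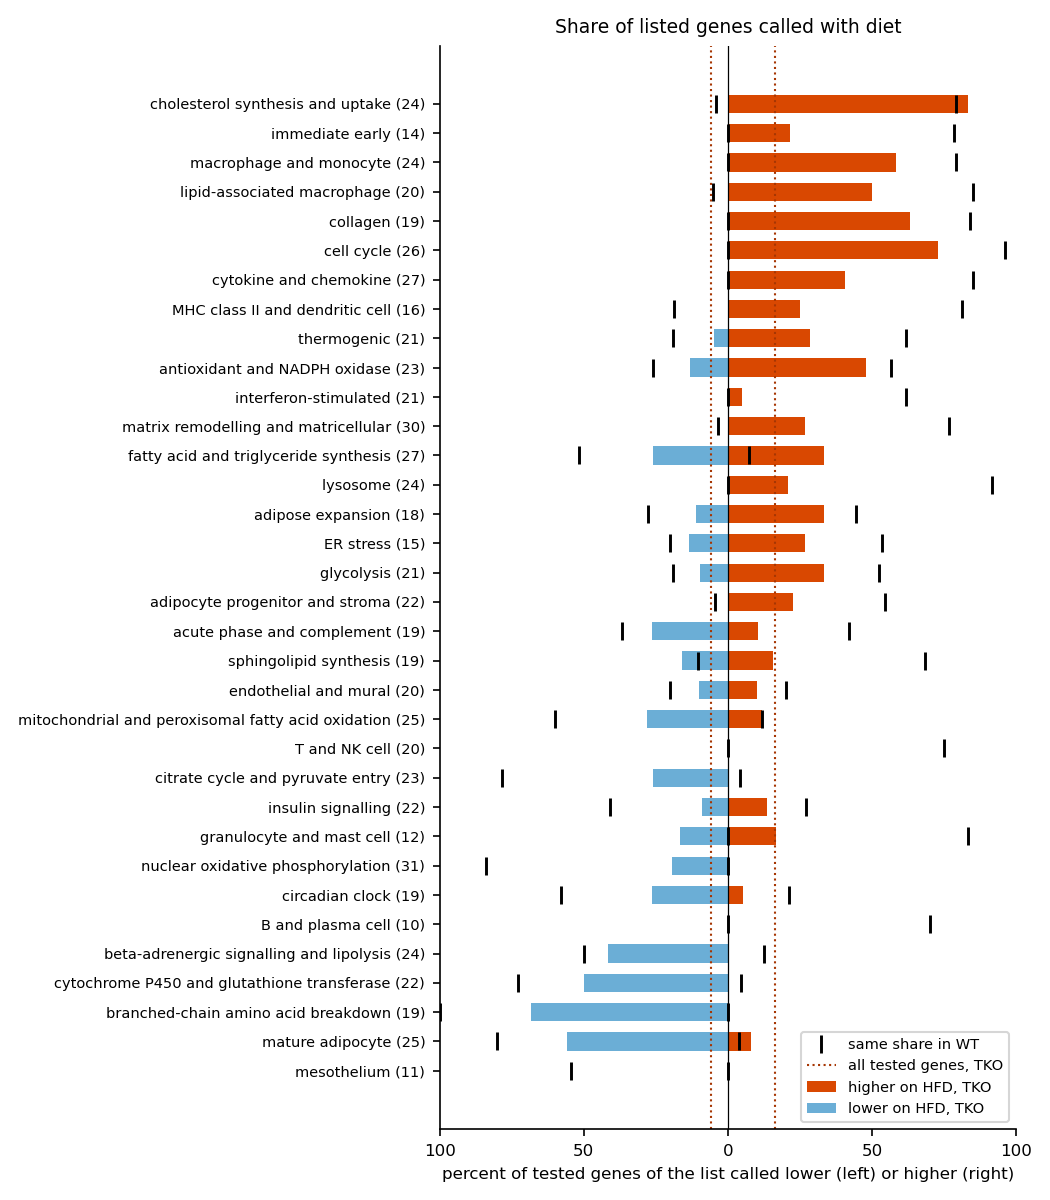
Share of the tested genes of each list that was called lower (left) or higher (right) on HFD in TKO (bars), with the WT share as a tick and the share over all tested genes in TKO as dotted lines at 16.2% and 5.9%. Lists of at least 10 tested genes are shown in the order of their median change, from mesothelium at the bottom to cholesterol genes at the top; the number of tested genes stands in parentheses.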

How the data were processed

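The authors deposited 1 table of eWAT expression in CPM, per the file headers. The tools STAR 2.7.3a, featureCounts 2.0.0 and DESeq2 and the build mm10 come from the submitters' processing notes, which give them no role; annotation, strand and multi-mapping are not given in the sources used here. Each library's values were whole multiples of a step after an offset of 0.01 read (100% within 0.05 read), so read counts could be recovered; 3 genes without a symbol (at most 0.0679% of reads) were left out. A set of 89 tested genes shares all values with another gene. No pair of replicates agreed within sampling noise (chi-square per degree of freedom at least 6.28).

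The main test was limma 3.58.1 (R 4.3.3), its trend option on, fitted to log2(CPM + 1), a pseudocount of 1 that understates changes of low genes, over all 12 libraries in 1 fit (8 residual degrees of freedom), Benjamini-Hochberg adjusted over 15597 genes. Adjusted p-values printed with no tool are limma's. Alternatives were pseudocounts of 0.5 and 5, other filters, TMM scaling, edgeR 4.0.16, DESeq2 1.42.0 and limma-voom on recovered counts, a replicate block, only the 6 TKO libraries, and each library left out. The scripts were tested on simulated data. Deviations from group means correlated between same-numbered ND_TKO and HFD_TKO libraries (r = 0.392, 0.562 and 0.123) but not between those of WT (-0.36, -0.0207 and -0.207). Libraries of different number reached similar values: ND_WT replicate 1 with HFD_TKO replicate 2 (0.56), ND_TKO replicate 1 with HFD_TKO replicate 3 (0.114). TKO libraries of different number also fell as low as -0.528. These values do not establish a pairing, and no label gives one. A replicate block within TKO was added as an alternative after the same-numbered values were seen.

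Members, the 38 gene lists and the tests were chosen with earlier results of these data known. Named genes were the 12 largest rises and 12 largest falls among called genes whose groups did not overlap with a mean of at least 5 CPM, up to 4 called genes per list and those against its majority, a panel of 48 genes, and the 8 largest interactions of each sign with opposite calls. From these, genes were printed where the text needed them.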

Additional observations from a re-analysis of the deposited data

Results flagged for a closer look

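The diet change differed between TKO and WT, by the interaction term of the same fit, in each gene below; values are the TKO change minus the WT change on the log2(CPM + 1) scale. The printed genes were chosen with their values known, and of all tested genes 9.94% passed this test with a positive and 18.8% with a negative difference.

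Among the printed genes the difference was positive, the WT fall being larger than the TKO fall, in Cyp2e1 6.47, Adrb3 3.81, Cfd 3.30, Retn 2.61, Pck1 2.22 and Ivd 1.29. Genes that fell in WT and were not called in TKO in the main fit gave Thrsp 3.31, Slc2a4 2.60 and Cebpa 0.96. Genes that rose in TKO and fell or did not rise in WT gave Rnase2a 4.96, Retnla 3.04, Mgl2 2.80, Mlxipl 2.21, Pnpla3 2.09, Cdkn2c 2.04, Fasn 1.86, Acly 1.50 and Pmvk 1.22.

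Among the printed genes the difference was negative, the WT rise being larger, in Itgax -3.79, Rgs1 -3.70, Trem2 -2.91, Adgre1 -2.81, Hk3 -2.57, Lum -2.57, Cd68 -2.49, Top2a -1.84 and Ucp2 -1.49. Genes that fell in TKO gave Rgs2 -3.64, Sptlc3 -3.09, Tpsb2 -2.88, Mcpt4 -2.79 and Inmt -2.43. For genes near 0 in a group the size depends on the pseudocount and the tool: Rnase2a was 3.23 with a pseudocount of 5 and 8.10 with edgeR, and Sptlc3 was -1.75 and -5.62.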

How the results depend on the processing

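Higher genes in TKO numbered 2525, and 1520 with TMM scaling, 1501 with edgeR and 1437 with limma-voom. Lower genes numbered 921, and 1394 with TMM scaling and 1560 with DESeq2. Genes higher by at least 2-fold numbered 214, and 323 with edgeR, 350 with DESeq2 and 111 with a pseudocount of 5. Those lower by at least 2-fold numbered 130, and 281 with edgeR, 302 with DESeq2, 271 with limma-voom and 64 with a pseudocount of 5. The cause of these shifts was not tested, save that a larger pseudocount shrinks fold changes by construction. Median changes of all genes in WT went from 0.13 with CPM to -0.01 with TMM scaling.

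Leaving out each TKO library in turn gave 1256 to 2152 higher and 460 to 894 lower genes, 1716 to 3046 in all, and 132 to 299 higher and 91 to 193 lower by at least 2-fold; the lowest total of all calls came without ND_TKO replicate 3. WT counts and interaction counts stayed within 1.5 times under every alternative run. Slc2a4 in TKO ran from -0.16 without HFD_TKO replicate 2 to 0.10 without HFD_TKO replicate 1, against -0.06 with all libraries.

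With the replicate number as a block for all libraries 2308 genes were higher and 854 lower in TKO. With the block within TKO, which assumes that same-numbered TKO libraries are pairs, these counts were 2692 and 1133. Among the genes printed here a block ended the TKO calls of Fasn, Retnla and Mcpt4 given above and changed no other. Depth limits genes near 0.117 to 0.143 CPM, the level of 3 reads per library, in counting error only.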

Other observations

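Of 23 antioxidant and NADPH oxidase genes the HFD_TKO libraries had 11 higher and 3 lower (median log2 change 0.31), or 7 higher and 0 lower without ND_TKO replicate 3; the lower count was also 0 without HFD_TKO replicate 3, 1 without ND_TKO replicate 2 and 2 without HFD_TKO replicate 1 or 2. Ncf1, a cytosolic subunit of the phagocyte oxidase, went from 18.6, 18.5 and 12.05 to 27.2, 32.9 and 34.5 CPM (0.92, limma adjusted p = 0.0062). Of 19 complement and acute phase genes 2 were higher and 5 lower, and 4 higher and 6 lower with the replicate block within TKO; none was higher without HFD_TKO replicate 1 or 3 or ND_TKO replicate 3, 1 without ND_TKO replicate 2, and 3 were lower without ND_TKO replicate 3. Over all tested genes in TKO 16.2% were higher and 5.9% lower, the shares to set beside each list of this section. C6, of the membrane attack complex, fell from 44.0, 54.6 and 61.1 to 20.05, 12.1 and 11.3 CPM (-1.84, SE 0.18, adjusted p = 0.00053).

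Of 15 ER stress genes 4 were higher and 2 lower, with 2 higher without ND_TKO replicate 3 and 1 lower without HFD_TKO replicates 2 or 3 or ND_TKO replicates 2 or 3. Hspa5, the chaperone BiP, went from 530, 501 and 467 to 946, 668 and 734 CPM (0.63, adjusted p = 0.0043), and its partner Sdf2l1 changed by 0.76 (0.0045). Asns, asparagine synthetase, fell from 76.4, 120 and 119 to 49.4, 47.5 and 51.9 CPM (-1.04, adjusted p = 0.0037). In the clock, Clock itself rose by 0.66 (adjusted p = 0.0018) and its repressor Bhlhe41 fell by 0.58 (0.010). Of 19 clock genes 1 was higher and 5 lower, against 8 lower with TMM scaling or the block within TKO, 2 without HFD_TKO replicate 1 or ND_TKO replicate 2 and 1 without ND_TKO replicate 3; the higher count was 2 without HFD_TKO replicate 3 or ND_TKO replicate 1 or with the block within TKO. Grb14, an adaptor that inhibits the insulin receptor, rose from 10.4, 8.25 and 10.05 to 24.05, 24.7 and 18.5 CPM (1.14, adjusted p = 0.0028).

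Beside the fall of Sptlc3, the sphingolipid genes Cers4, a ceramide synthase, and Sptssa, a small subunit of the first enzyme, changed by -0.57 and 0.40 (limma adjusted p = 0.0043 and 0.0082). Among nerve and Schwann cell genes Pmp22, a myelin protein gene, rose from 237, 244 and 258 to 389, 374 and 371 CPM (0.62, adjusted p = 0.0013), and Stmn2, a neuronal microtubule regulator, changed by -0.80 (0.0066).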
